A study of Mus musculus with 36 samples.

Results

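Mesenteric lymph nodes of mice on day 3 of treatment with the soluble lymphotoxin-beta receptor were compared with nodes on day 1 of the same treatment, to see which transcripts kept moving between the first and the third treated day. The members of the comparison are the samples titled day 1 and day 3, 3 per day on each of 2 Affymetrix oligonucleotide arrays that carry different probe sets (arrays A and B), or 12 of the 36 measurements of the series. The agent, called sLTbetaR-Ig in the series title, takes up the receptor's ligands in place of the receptor on cells, and every sample on both sides of the comparison carried it. The other groups were nodes of mice given phosphate-buffered saline (PBS, day 0) and nodes after 2, 27 or 35 days of the decoy, again with 3 samples on each array. The sources used here give no strain, sex, age, dose or route, and do not say whether the 3 samples of a day came from separate mice. P-values thus measure only the spread among these samples, which may be technical. No PBS group was sampled on days 1 to 3 and no group received a control protein, so days of decoy and days since the first injection cannot be told apart. For 1 array B sample of day 1 the source label was unrelated to the study, and its day came from the title and description.

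Lymphotoxin is made by lymphocytes and, together with LIGHT, acts on the lymphotoxin-beta receptor of stromal and endothelial cells. The receptor signals through the kinase NIK (gene Map3k14) to the NF-kB proteins RelB and Nfkb2, and in lymph nodes this signal is known to maintain follicular dendritic cells, which hold antigen in B cell follicles, and high endothelial venules, through which lymphocytes enter from the blood. In the adult both structures need the signal to persist.

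Probe sets are groups of short probes for 1 transcript, and their values are intensities on the linear scale of the deposited tables. Changes are log2 differences, day 3 minus day 1, with the standard error (SE) of a limma fit, and a probe set was called where the p-value adjusted over all tested probe sets of its array was under 0.05. Array medians for both days were 277.5 to 290.2 (array A) and 149.8 to 162.8 (array B). No pair of samples within day 1 or within day 3 had identical values (correlations of 0.972 to 0.992 and 0.915 to 0.966). Markers of lymph node tissue were measured in these samples, since the probe sets that passed the filter on dim values included the B cell genes Cd79a and Ms4a1, the T cell genes Cd3e and Cd3g, the stromal gene Pdpn, the follicular dendritic cell genes Mfge8, Cxcl13 and Cr2, the venule genes Glycam1 and Madcam1, and the macrophage genes Adgre1, Cd68 and Siglec1. In whole nodes, fewer cells of a type and less RNA per cell cannot be told apart. The ratio of the 5' to the 3' control probe set for 18S ribosomal RNA was 0.659 to 0.694 in day 1 samples of array A and 0.718, 0.747 and 0.907 in day 3 samples, and it was 0.277 to 0.327 against 0.333, 0.35 and 0.47 on array B. The day 3 samples were therefore above the day 1 samples on both arrays, replicate 3 most of all, and the part of this shift in the results was not tested. The 3' to 5' ratio for actin was 0.997 to 1.04 at day 1 and 1.01 to 1.09 at day 3 on array A.

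Between day 1 and day 3, 26 probe sets fell and 2 rose among 12231 tested on array A, or 0.229% called (0.213% lower, 0.0164% higher). In all 28 the 3 samples of one day lay entirely on one side of the 3 samples of the other, as they did in 1681 (13.7%) of all tested probe sets on array A and in 902 (7.21%) on array B. The 25 falling probe sets with 1 gene symbol stand for 24 genes. The largest fall was that of Glycam1, followed by Ogt, Septin1, Foxp1 and Mfge8, and the only rise with 1 symbol was that of Fscn1. On array B limma called 0 of 12516 probe sets (0%), with a smallest adjusted p of 0.648, and 590 had an unadjusted p under 0.05 (441 higher, 149 lower). All array B values leaned higher without scaling, with a median change of 0.027 and 40.3% of probe sets lower. After quantile scaling the median was -0.0024, with 50.9% lower, so the split between higher and lower depends on the scaling. On array A 955 had an unadjusted p under 0.05 (321 higher, 634 lower).

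**Figure D1:**
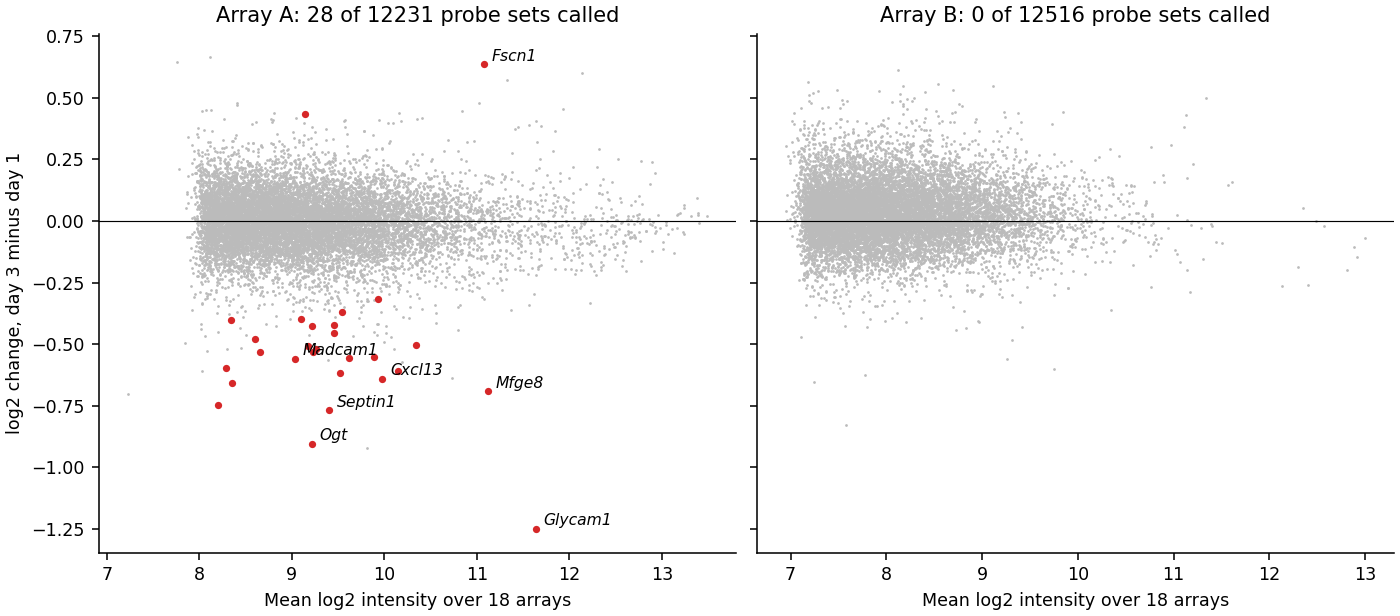
Log2 change from day 1 to day 3 (vertical) against the mean log2 intensity over the 18 arrays (horizontal) for every tested probe set of array A (left) and array B (right), with called probe sets in red. Of 28 red points on array A, 26 lie below 0, and array B has none.

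The steepest fall was in Glycam1, a secreted mucin of high endothelial venules that carries sugars recognised by the lymphocyte homing receptor L-selectin. Its intensity was 4820, 4354 and 4682 in the day 1 samples, 2759, 2740 and 2565 at day 2 and 1640, 2244 and 1980 at day 3. The 3 days did not overlap, and each later day lay below the one before. The PBS mean was 5807 ± 727 (SD, n = 3). From day 1 to day 3 Glycam1 fell by 1.25 on the log2 scale (SE 0.12, adjusted p = 3.0e-05), so that day 1 stood 2.38-fold above day 3. The first step, day 2 minus day 1, was -0.78 (adjusted p = 0.031) and the only call of that step on either array, or 0.00818% of array A. The second step was -0.47 (adjusted p = 0.11).

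Mfge8, a secreted protein by which follicular dendritic cells tag dying cells for uptake, stood at 2279, 2183 and 2223 at day 1, 1559, 1530 and 1554 at day 2 and 1320, 1369 and 1452 at day 3. No day overlapped another, and the day 3 samples were the lowest. The change was -0.69 (SE 0.11, adjusted p = 0.0056), with -0.53 in the first step and -0.17 in the second, neither called on its own (adjusted p = 0.67 and 0.77). The PBS mean was 3449 ± 149 and the day 35 mean 3354.

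Cxcl13, the chemokine that draws B cells into follicles, had intensities of 1168, 1494 and 1203 at day 1, 904, 998 and 858 at day 2 and 789, 820 and 853 at day 3 on the called probe set. Day 1 lay wholly above day 3, while the lowest day 2 sample was close to the highest day 3 sample. The change was -0.64 (SE 0.11, adjusted p = 0.0096), and the PBS mean was 1519 ± 55.6. A second Cxcl13 probe set, not called, read 1148, 1324 and 1219 at day 1 and 907, 926 and 907 at day 3, again without overlap, and its change was -0.43 (SE 0.094, adjusted p = 0.078).

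Madcam1, the mucosal vascular addressin, which lets lymphocytes bind to venules of gut-draining nodes and is also made by follicular stroma, was at 607, 631 and 631 at day 1, 471, 468 and 461 at day 2 and 465, 435 and 372 at day 3. Day 2 and day 3 overlapped and both lay below day 1. The change was -0.56 (SE 0.10, adjusted p = 0.020), made of -0.42 and -0.14, and the PBS mean was 732 ± 97.2. In these 4 genes the day 2 mean lay between the means of the days around it, but whether the first step exceeded the second was a test that none of the 4 passed (Glycam1 adjusted p = 0.998).

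**Figure D2:**
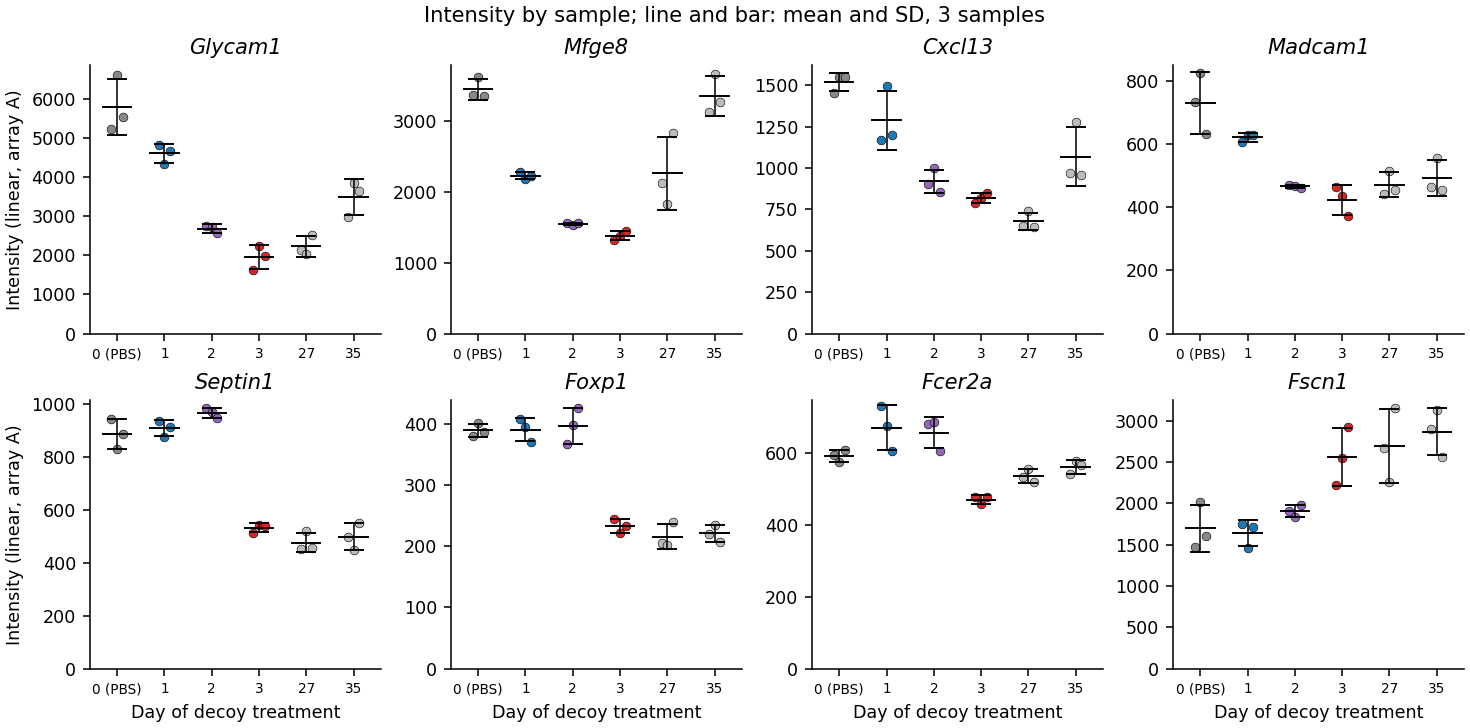
Intensity (linear, array A) against day of decoy treatment for 8 genes, with 1 point per sample and the mean and SD of 3 samples. Glycam1, Mfge8, Cxcl13 and Madcam1 are lower at day 2 than at day 1, while Septin1, Foxp1 and Fcer2a are near their day 1 level on day 2 and lower on day 3, and Fscn1 is higher on day 3.

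Because these 4 stromal genes are known to depend on the lymphotoxin-beta receptor, the 250 bases before each start site are shown, from RefSeq on GRCm38.p6 and written 5' to 3' along the gene. Capitals mark matches, on either strand, to the NF-kB consensus or to TATAAA, the core of the TATA box.

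Cxcl13 promoter, chr5:95956689-95956938, plus strand: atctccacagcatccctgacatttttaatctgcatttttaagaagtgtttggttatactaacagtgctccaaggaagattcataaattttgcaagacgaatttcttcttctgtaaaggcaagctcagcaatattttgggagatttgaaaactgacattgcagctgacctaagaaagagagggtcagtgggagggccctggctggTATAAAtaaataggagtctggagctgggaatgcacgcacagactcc
Madcam1 promoter, chr10:79664309-79664558, plus strand: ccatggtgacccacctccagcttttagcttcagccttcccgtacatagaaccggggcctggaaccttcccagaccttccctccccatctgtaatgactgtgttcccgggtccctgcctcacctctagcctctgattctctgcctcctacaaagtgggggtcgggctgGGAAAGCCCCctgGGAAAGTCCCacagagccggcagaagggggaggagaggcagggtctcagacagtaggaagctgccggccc
Glycam1 promoter, chr15:103565082-103565331, minus strand: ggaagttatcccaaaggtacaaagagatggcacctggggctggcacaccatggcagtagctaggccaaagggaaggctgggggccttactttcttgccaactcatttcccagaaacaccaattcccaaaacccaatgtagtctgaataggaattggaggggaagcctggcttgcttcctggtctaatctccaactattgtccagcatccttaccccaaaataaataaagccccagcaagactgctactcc
Mfge8 promoter, chr7:79149061-79149310, minus strand: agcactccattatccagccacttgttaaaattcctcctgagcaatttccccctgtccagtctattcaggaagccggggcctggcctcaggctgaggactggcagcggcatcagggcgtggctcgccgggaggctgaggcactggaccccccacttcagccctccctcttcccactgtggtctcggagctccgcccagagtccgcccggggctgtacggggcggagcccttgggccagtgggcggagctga

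Madcam1 held 2 matches to the NF-kB consensus, both on the opposite strand, from 83 to 74 and from 70 to 61 bases before the start, and they do not overlap. Cxcl13 held TATAAA from 46 to 41 bases before the start. Glycam1 and Mfge8 held neither run of letters in this window, which says nothing about the factors. Among 32841 RefSeq promoters of the same length, 3.9% held the NF-kB consensus and 12.4% held TATAAA.

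Other genes of these stromal cells were not called. Among 14 tested genes of the follicular dendritic cell list 2 fell (Mfge8 and Madcam1) and 12 did not pass, with a median change of -0.083 beside 0.012 over all 12395 genes tested, where the brightest tested probe set stands for each gene and 0.105% were called lower. Of the 14, 12 (85.7%) were below 0, beside 45.5% of all genes. An unadjusted p under 0.05 was found in 4 (28.6%), all lower, beside 3.08% of all genes. Both counts include the called genes. Cxcl13 (-0.43) and Fcer2a (-0.19) count here by their brightest probe sets, which were not the called ones. The list's other values included -0.19 for the secreted chaperone Clu (adjusted p = 0.49), and -0.050 for the complement receptor Cr2. The high endothelial venule list also had 14 tested genes, of which 2 fell (Glycam1 and Madcam1, the latter shared with the other list), with a median of -0.10. In the venule list 11 genes (78.6%) were below 0 and 3 (21.4%) had an unadjusted p under 0.05, all lower, again with the called genes included. The next lowest of that list was Cd300lg, a sialomucin of venules, read on array B at 370, 332 and 324 on day 1 and 281, 280 and 215 on day 3 (change -0.41, adjusted p = 0.998). Those samples did not overlap, but the change did not pass. Ubd, a ubiquitin-like modifier (-0.18), Ch25h, which makes the B cell attractant precursor 25-hydroxycholesterol (-0.056), and the chemokine-binding receptor Ackr1 (-0.061) did not pass either.

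No gene of the lymphotoxin pathway itself passed. Of 22 tested genes on the lymphotoxin and NF-kB list 0 were called by limma, 1 had an unadjusted p under 0.05, and their median was 0.030. Of the ligands, Lta was at 365, 333 and 358 on day 1 and 315, 328 and 259 on day 3 (-0.24, adjusted p = 0.65), and Ltb changed by -0.077. The receptor Ltbr was at -0.062 and the kinase gene Map3k14 at -0.00031. Of the NF-kB subunits, Relb was at 782, 723 and 720 against 816, 853 and 878 (0.20, adjusted p = 0.65, without overlap) and Nfkb2 at -0.050. The inhibitor Nfkbie had the smallest p of the list, with 0.23 (adjusted p = 0.42), and the inhibitor Nfkbia was at 0.050.

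Among 14 genes on the homeostatic chemokine list, which also holds receptors and the growth factor Csf1, none was called by its brightest probe set, with a median of 0.057. Cxcl13 is one of them and counts by its uncalled probe set (-0.43). Other values were -0.46 for the chemokine receptor Cxcr4, 0.24 for the macrophage growth factor Csf1 (984, 1091 and 1203 against 1312, 1256 and 1282), and 0.026 for the lymphocyte survival factor Il7. The adhesion molecule Vcam1 was at 0.15, and Madcam1 was the 1 called gene of 11 on the adhesion list. Il22ra2, a secreted decoy for interleukin-22 read on array B, was at 268, 220 and 247 on day 1 and 190, 192 and 194 on day 3 (-0.34, adjusted p = 0.998). The desmosomal cadherin Dsc3 was at -0.063 on array A and -0.10 on array B.

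In most of the other falls the second step was the larger, as a description of probe sets chosen for their day 1 to day 3 difference. Of the 26 falling probe sets, 22 differed by less than 0.2 between day 1 and day 2 (from -0.19 to 0.098) and had a second step of -0.97 to -0.32. In 17 of the 26 (65.4%) the day 2 samples overlapped the day 1 samples, beside 89.2% of all tested probe sets of array A. In 1 of the 26 (Madcam1) they overlapped the day 3 samples, beside 83.2% of all. Since the call itself needed day 3 to lie apart from day 1, neither share is evidence of timing. The 18S ratio on array A also stood near its day 1 level at day 2 and higher at day 3. It was 0.659 to 0.694 at day 1, 0.606 to 0.709 at day 2 and 0.718 to 0.907 at day 3. Its part in these steps was not tested. Between day 2 and day 3 limma called 32 probe sets on array A, all lower (0.262%), and 0 on array B, where 209 had an unadjusted p under 0.05. Among the 32 were 18 of the 26, but both comparisons use the day 3 samples. A test of whether the second step differed from the first, added after the values were seen, called Septin1 alone on array A (-0.95, adjusted p = 0.017), with 464 probe sets at an unadjusted p under 0.05.

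**Figure D3:**
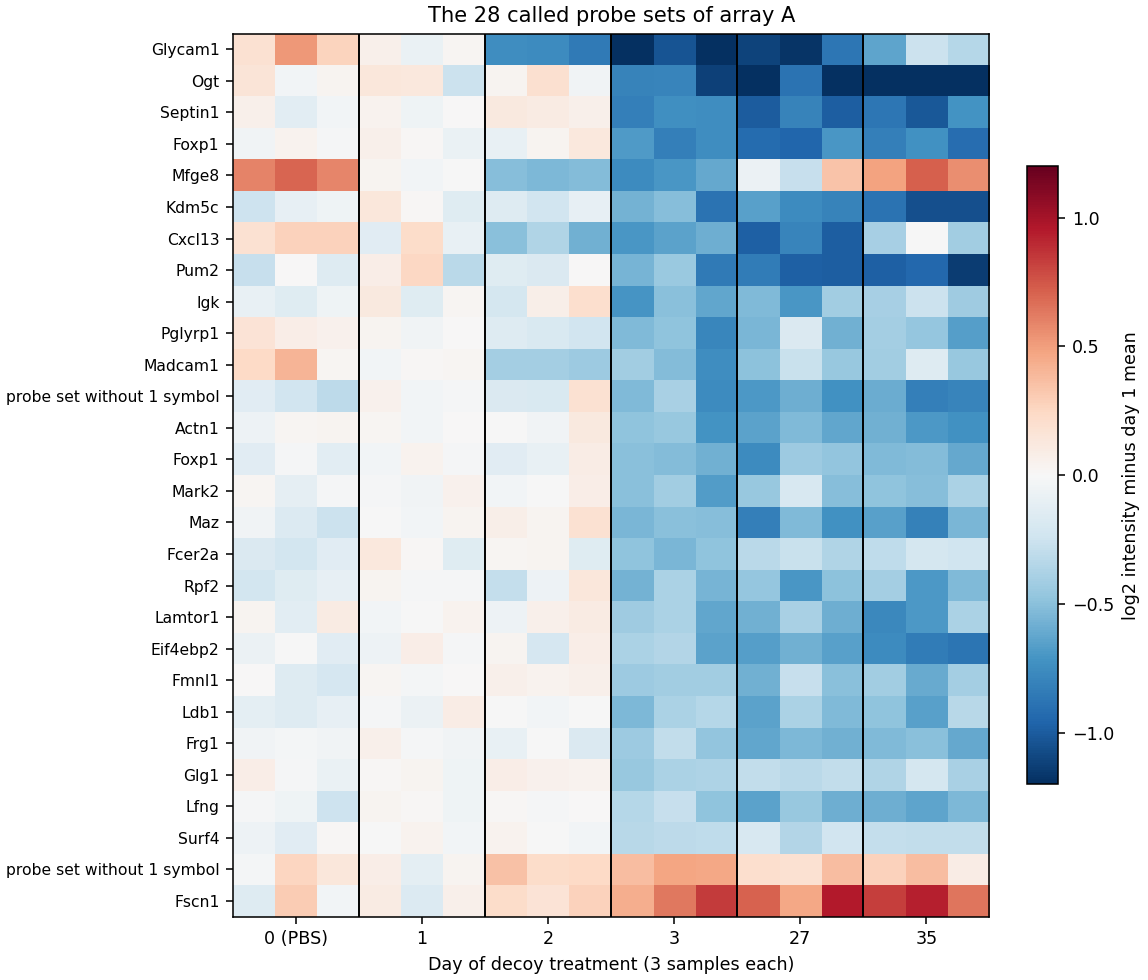
Log2 intensity minus the day 1 mean for the 28 called probe sets of array A (rows) in all 18 samples (columns, 3 per day), with the colour scale ending at 1.2 in either direction. Most falling rows are pale at days 1 and 2 and blue from day 3 on, while Glycam1, Mfge8, Cxcl13 and Madcam1 are already blue at day 2.

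Septin1, a filament-forming GTP-binding protein of lymphocytes, read 935, 874 and 912 at day 1, 984, 968 and 946 at day 2 and 514, 544 and 540 at day 3. The change was -0.77 (SE 0.078, adjusted p = 6.1e-05), with day 1 1.70-fold above day 3, and the PBS mean was 886 ± 57.1. Foxp1, a forkhead transcription factor needed for B cell development and T cell quiescence, fell on 2 probe sets. The first read 407, 394 and 369 at day 1, 366, 398 and 425 at day 2 and 244, 221 and 233 at day 3 (-0.75, SE 0.083, adjusted p = 1.6e-04). The second, of a kind that can match more than 1 transcript, read 485, 512 and 493 against 350, 347 and 332 (-0.53, adjusted p = 0.0056). In both genes no day 2 sample came near the day 3 samples, which lay below all samples of days 1 and 2.

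Ogt, the enzyme that attaches N-acetylglucosamine to nuclear and cytosolic proteins, read 960, 951 and 728 at day 1, 895, 996 and 846 at day 2 and 501, 505 and 400 at day 3 (-0.90, SE 0.13, adjusted p = 0.0036). Kdm5c, a histone demethylase, read 488, 450 and 402 at day 1 and 300, 312 and 241 at day 3 (-0.66, SE 0.098, adjusted p = 0.0042). Pum2, an RNA-binding repressor of translation, read 1068, 1202 and 812 against 690, 744 and 562 (-0.62, adjusted p = 0.044). In Ogt, Kdm5c and Pum2 the day 1 samples spread more widely than those of Septin1, and replicate 3 was the lowest on both days. Replicate 3 was also the lowest day 3 sample in several other falls, among them Madcam1 and Pglyrp1. It was not the lowest in Glycam1, Septin1, Mfge8 or Cxcl13.

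Igk, the immunoglobulin kappa locus, read 1478, 1237 and 1391 at day 1 and 834, 964 and 888 at day 3 on the called probe set (-0.61, SE 0.10, adjusted p = 0.0086). Kappa transcripts resemble each other, so which of them this probe set reads is uncertain. Pglyrp1, a bacteria-binding protein of neutrophil granules, read 384, 366 and 377 at day 1, 338, 330 and 321 at day 2 and 261, 270 and 219 at day 3 (-0.60, SE 0.10, adjusted p = 0.012). Its 3 days did not overlap, and its second step of -0.41 was not called (adjusted p = 0.12).

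The remaining falling genes are named because they were called, after their values were seen. Fcer2a, the low-affinity IgE receptor CD23 of B cells and follicular dendritic cells, read 729, 673 and 605 at day 1, 679, 685 and 605 at day 2 and 477, 457 and 476 at day 3 (-0.51, adjusted p = 0.0032). The cytoskeletal genes were Actn1 (-0.55), which crosslinks actin, Mark2 (-0.53), a kinase of microtubule-binding proteins, and the formin Fmnl1 (-0.43). The nuclear genes were the zinc finger factor Maz (-0.52) and the LIM domain cofactor Ldb1 (-0.42). Rpf2 (-0.50), a ribosome assembly factor, Lamtor1 (-0.48), a lysosomal anchor of mTOR signalling, and Eif4ebp2 (-0.45), a repressor of translation, fell too. The others were Frg1 (-0.40), the Golgi glycoprotein Glg1 (-0.40), Lfng (-0.37), a glycosyltransferase that modifies Notch, the cargo receptor Surf4 (-0.32) and a probe set without a single symbol (-0.56).

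At the later times most of these probe sets were below day 1. In 24 of the 26 (92.3%), all 6 samples of days 27 and 35 lay below all 3 day 1 samples, the exceptions being Mfge8 and Cxcl13. The same held for 1129 (9.23%) of all 12231 probe sets tested and for 419 (47.7%) of 878 that were not called but had day 3 wholly below day 1, and all of these share the day 1 samples. Septin1 had means of 476 at day 27 and 498 at day 35, beside 907 at day 1. Ogt had means of 384 and 352, beside 879. Glycam1 had means of 2233 and 3496, beside 4619. On array A the 18S ratio was 0.765 to 1.05 at days 27 and 35 and the actin ratio 1.06 to 1.14, both above their day 1 ranges, and the mean of 45 small respiratory chain subunits, on the log2 scale relative to day 1, ran from -0.629 to -0.207. The part of these shifts in the later levels was not tested.

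Other probe sets of the same genes often did not move with the called one. Of the 24 falling genes, 14 had another tested probe set, 38 in all, of which 0 were called and 7 had an unadjusted p under 0.05, all lower. Their changes ran from -0.43 to 0.22, with a median of -0.017, and 22 were below 0. The 4 other probe sets of Ogt ran from 0.050 to 0.21, the 6 of Kdm5c from -0.099 to 0.036, all on array B, and the 3 of Pum2 from -0.010 to 0.22. The other probe set of Igk stood at 0.025 (SE 0.31). For Foxp1, 6 others ran from -0.32 to 0.0079, and for Fcer2a the other stood at -0.19. Cxcl13 and Lfng (-0.26) had a single other probe set each, and both lay below 0. Among these 14 genes Foxp1 alone had more than 1 called probe set.

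**Figure D4:**
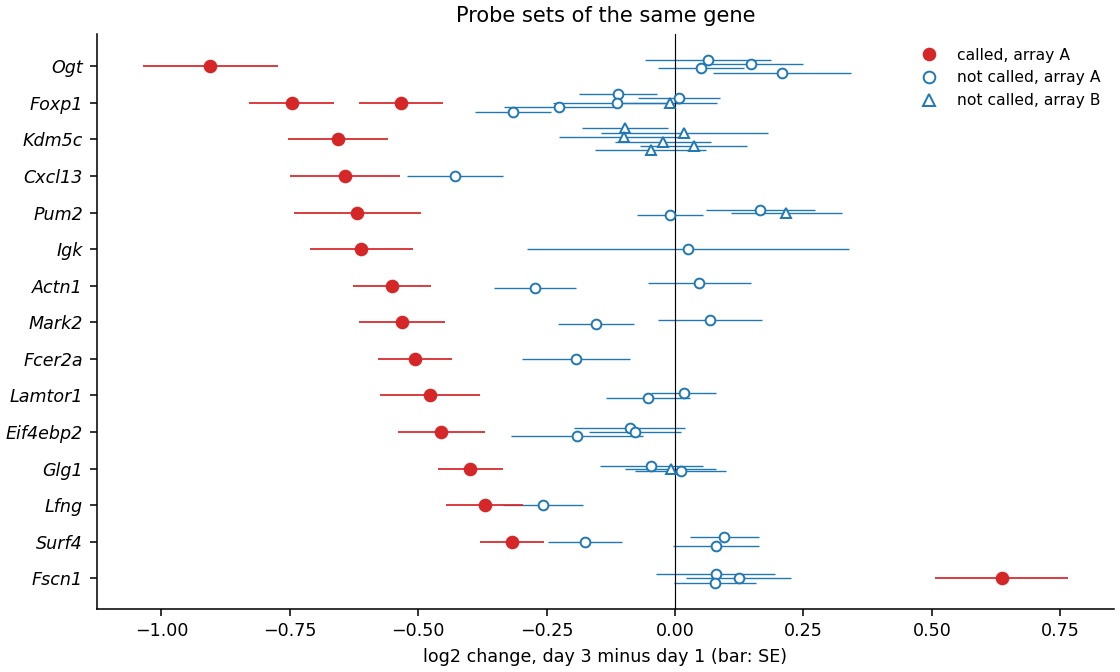
Log2 change from day 1 to day 3 (bars, SE) for every tested probe set of the called genes that have more than 1, with called probe sets filled and the others open (circles on array A, triangles on array B). The open points of falling genes run from -0.43 to 0.22 and most lie to the right of the filled point of their gene.

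The rises were few. Fscn1, an actin-bundling protein of mature dendritic cells, read 1754, 1465 and 1709 at day 1, 1908, 1829 and 1984 at day 2 and 2216, 2545 and 2920 at day 3 (0.64, SE 0.13, adjusted p = 0.048). Its 3 other probe sets were at 0.079 to 0.12 and not called. From day 2 to day 3 those 3 changed by -0.28 to -0.17, beside 0.42 for the called probe set. The call of Fscn1 ended whichever of the 6 arrays was left out (adjusted p up to 0.31). The other rise (0.43, adjusted p = 0.044) was of a probe set without a single symbol. Below the threshold on array A, with no overlap, were Ccl22, a chemokine of mature dendritic cells, at 954, 868 and 1068 against 1222, 1395 and 1291 (0.44, adjusted p = 0.10), and Csf3r, the receptor of the neutrophil growth factor (0.30, adjusted p = 0.10). Of 20 dendritic cell genes, Fscn1 among them by its brightest probe set (0.079), none was called, and the median was 0.033.

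Genes of fat and cholesterol synthesis had the highest median of all lists. None of 19 was called, yet 16 were above 0 with a median of 0.22, and 7 (36.8%) had an unadjusted p under 0.05, all higher, beside 2.96% of all genes. Acly, which makes cytosolic acetyl-CoA for this synthesis, read 4007, 2804 and 3827 at day 1 and 5090, 5457 and 5393 at day 3 on 1 probe set (0.60, adjusted p = 0.10) and was at 0.57 on another, both of a kind that can match related transcripts. Fdps, an enzyme of the mevalonate pathway, was at 0.26, the fatty acid synthase Fasn at 0.25, Acaca, which makes malonyl-CoA, at 0.41 and the squalene epoxidase Sqle at 0.32, while the sterol regulator Srebf2 was at -0.010. The mean over the 18 members on array A, relative to day 1, was 0.0431, -0.0858 and 0.0427 in day 1 samples and 0.206, 0.288 and 0.164 in day 3 samples, so the days did not overlap. Such means also did not overlap in the follicular dendritic cell and high endothelial venule lists, which were lower at day 3. The same held for the macrophage and dendritic cell lists, which were higher at day 3. Over the 19 adipocyte genes, of which none was called, the same mean was -0.147, 0.0287 and 0.119 at day 1 and -0.0599, 0.0422 and -0.115 at day 3, and the days overlapped; the part of fat tissue in the result was not tested.

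Small subunits of the respiratory chain leaned the other way. None of 45 was called, with a median of -0.15, 44 below 0 and 11 (24.4%) at an unadjusted p under 0.05, all lower, beside 3.08% of all genes. Ndufa6, a subunit of complex I, read 996, 1058 and 1091 at day 1 and 808, 950 and 569 at day 3 (-0.47, adjusted p = 0.34). Over the list the mean relative to day 1 was -0.0382, 0.0181 and 0.02 in the day 1 samples and -0.0865, -0.00002 and -0.437 at day 3. Replicate 3 of day 3, which also had the highest 18S ratio of these samples, stood furthest from day 1. Replicate 1 of day 3 was also below all day 1 samples, by less, and replicate 2 lay within their range. The 33 large mitochondrial enzymes had a median of 0.014 and the 30 cytosolic ribosomal proteins one of -0.056.

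By the brightest probe set of each gene, none of the B cell, T cell, macrophage and matrix lists had a call. Among 19 B cell genes, which hold Fcer2a by its uncalled probe set (-0.19) while its other probe set fell, the median was -0.090, and the antigen receptor subunit Cd79a was at 3555, 3772 and 3196 on day 1 and 3017, 2666 and 2629 on day 3, without overlap (-0.34, adjusted p = 0.061). The B cell kinase Blk was at -0.28 (adjusted p = 0.10) and the B cell surface protein Ms4a1 at -0.12. Over 20 T cell genes the median was -0.011. Among 32 macrophage genes, with a median of 0.054, Adgre1, the macrophage surface protein known as F4/80, was at 505, 487 and 489 against 633, 682 and 636 (0.40, adjusted p = 0.34), the iron exporter Slc40a1 at 0.27 and Siglec1 at -0.016. Of 41 matrix genes, with a median of 0.028, the highest values were Col14a1 (0.34), which binds collagen fibrils, fibronectin (Fn1, 0.33) and the collagen-binding proteoglycan Lum (0.29), while Mgp, an inhibitor of calcification, was at -0.066.

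**Figure D5:**
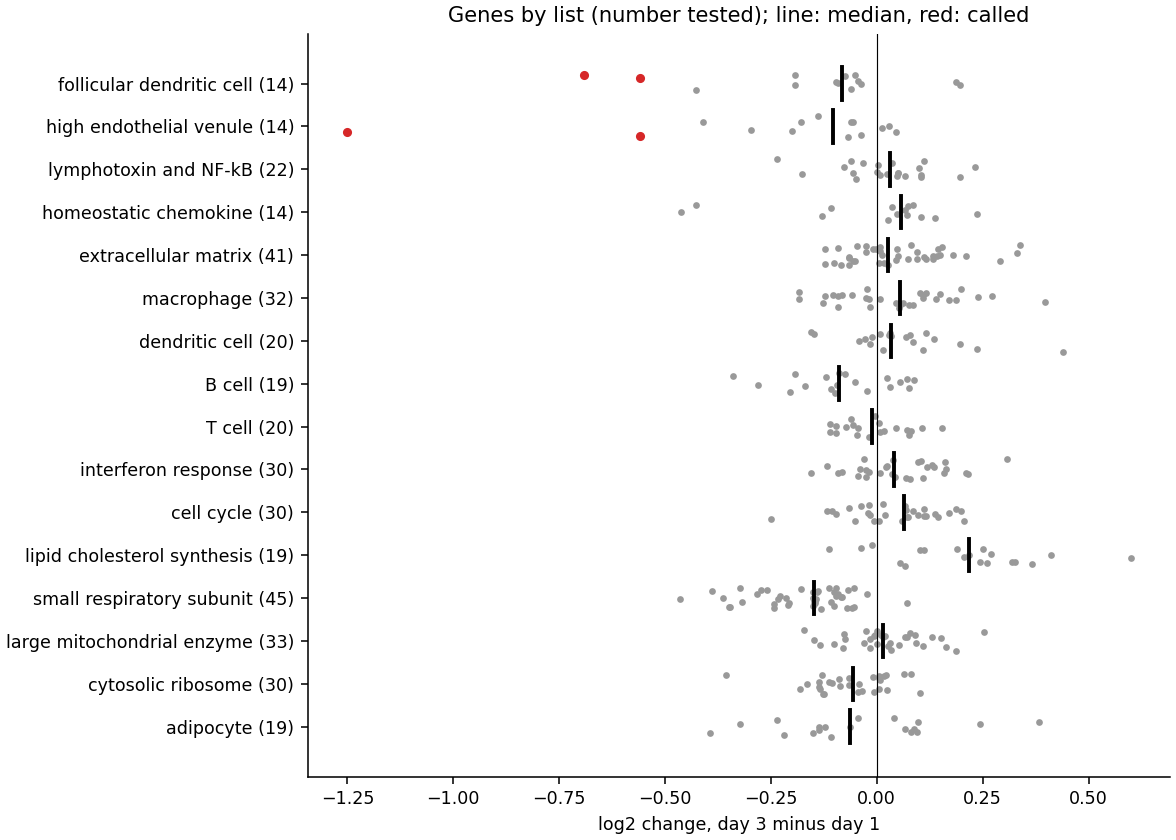
Log2 change from day 1 to day 3 of each tested gene in 16 of the gene lists, with the number of genes in brackets, the list's median as a black line and called genes in red. Red points occur in the follicular dendritic cell and high endothelial venule lists, where Madcam1 appears in both, and the lipid and cholesterol synthesis list has the highest median.

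The remaining lists had no called gene either. Their medians were 0.041 for 30 interferon response genes, 0.064 for 30 cell cycle genes, 0.063 for 7 germinal centre genes, 0.034 for 13 plasma cell genes, 0.0093 for 10 cytotoxic genes and 0.0099 for 9 neutrophil and mast cell genes. They were 0.055 for 13 complement genes, -0.052 for 11 class II genes, 0.021 for 13 lymphatic endothelial genes, 0.013 for 9 basement membrane genes and -0.051 for 6 desmosome genes. For stress and time of day, they were -0.095 for 13 glucocorticoid response genes, 0.031 for 20 heat shock genes, 0.015 for 26 immediate early genes and 0.023 for 12 circadian clock genes. For tissue that a dissected node could carry along, they were -0.021 for 8 erythroid, -0.064 for 19 adipocyte, -0.046 for 5 pancreas, 0.022 for 5 intestine and -0.018 for 7 muscle genes.

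On array B no value passed. Of the probe sets with 1 symbol whose days did not overlap, the smallest p belonged to Atxn2l, an RNA-binding relative of ataxin-2, which read 891, 766 and 732 at day 1 and 577, 538 and 502 at day 3 (-0.56, adjusted p = 0.65). Med13l, a Mediator subunit, was next (-0.40, adjusted p = 0.65). Slfn5, an interferon-inducible Schlafen protein, read 235, 226 and 283 against 336, 344 and 362 (0.49, adjusted p = 0.65). The next in order of p, each at an adjusted p of 0.85, were Slc7a6os (-0.47), Pik3ip1 (-0.44), an inhibitor of phosphoinositide 3-kinase, the centrosomal gene Cep192 (0.49), Ttll11 (0.57), a tubulin-modifying enzyme, the synaptotagmin Syt1 (0.36), Pde12 (0.61), Pdzd11 (0.53) and Gm7788 (0.48). The survival gene Bcl2 followed (0.33, adjusted p = 0.94).

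Many calls ended when 1 array was left out. That also leaves fewer samples, so a lost call need not mean that the change rests on that array. Fmnl1 lost its call under each of the 6 while its change stayed at -0.438 to -0.415. The change of Pum2 ran more widely, from -0.779 to -0.496. The count on array A was 13 without day 1 replicate 1, 13 without day 1 replicate 2, 12 without day 3 replicate 1 and 12 without day 3 replicate 3, and 9 of the 28 probe sets were called whichever of the 6 arrays was left out: those of Glycam1, Ogt, Septin1, Mfge8, Kdm5c, Actn1, Fcer2a and both of Foxp1. Among the other genes given in full, the call ended without day 1 replicate 2 or day 3 replicate 1 for Cxcl13 (adjusted p up to 0.080), with any array except day 3 replicate 1 for Madcam1 (up to 0.15), without any day 1 array or day 3 replicate 3 for Pglyrp1 (up to 0.10), without day 1 replicate 1, day 3 replicate 1 or day 3 replicate 3 for Igk (up to 0.087), and without day 1 replicate 1 or 2 or day 3 replicate 1 or 3 for Pum2 (up to 0.31).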

How the data were processed

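RNA of 36 samples was measured on 2 arrays. The authors deposited 1 linear intensity per probe set and sample, with software, background correction and scaling not given in the sources used here. No further scaling was applied. Genes were named from the platform annotation where it lists 1 symbol. Intensities were raised to the 20th percentile of their table and taken to log2, and a probe set was tested if 3 or more of the 18 arrays exceeded the median of the table. Each table was fitted with limma 3.58.1 in R 4.3.3 (lmFit, eBayes with trend), all 6 groups in 1 fit, so that the PBS, day 2, day 27 and day 35 arrays entered only the filter and the common spread. P-values are two-sided and adjusted by the Benjamini-Hochberg method within array and comparison, and the number of arrays limits the precision.

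The comparison, gene lists and fixed genes were chosen with earlier results of these data known. Genes given in full are the 10 largest called falls and all called rises with 1 symbol and no overlap. Others are a fixed set, the called or lowest-p members of each list and, where few were called, the uncalled ones of smallest p without overlap. On array A, day 1 and day 3 samples of the same replicate number did not deviate together. Their correlations were 0.074, -0.24 and -0.11, beside -0.08 to 0.2 for unlike numbers. On array B they were 0.61, -0.15 and 0.41, beside -0.62 to 0.23, so replicates 1 and 3 did deviate together there. The sources used here do not say whether samples were paired. On simulated data of 12231 probe sets for array A, 76% of 100 probe sets changed by 0.5 and 97% of 100 changed by 1 were called, and on 12516 for array B 67% and 99%. False calls were 4 on array A and 16 on array B. Noise was drawn independently for each probe set, without effects shared by a whole array. The simulation also held more changed probe sets than were called in the real samples of either array, and more true changes ease the adjusted threshold. For both reasons these shares need not hold for the real samples. Alternatives covered the scaling, floor, filter, variance model, array weights, samples in the fit, a covariate, a replicate block, the threshold and leaving out each array.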

Additional observations from a re-analysis of the deposited data

How the results depend on the processing

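Of the 28 calls on array A, 5 held in all 19 alternatives (Glycam1, Ogt, Septin1 and both probe sets of Foxp1), and no value reversed. The count was 17 with no filter on dim probe sets (13 shared with the main count), 7 with only the day 1 and day 3 arrays fitted (all shared) and 43 at an adjusted p under 0.1. It was 311 with array weights (101 higher, 210 lower), and higher calls made up a larger share than in the main fit. The estimation of these weights stopped before it converged. Leaving out 1 array gave 12 to 22. The replicate block gave 23 (22 shared), all lower, and ended the calls of both rises. With the mean of the small respiratory subunits as a covariate it was 22 (15 shared), and the call of Madcam1 ended (adjusted p = 0.095). Fitting only days 0 to 3, added after seeing the data, gave 33. Mfge8 was not called without the filter (adjusted p = 0.056). Array B had 0 calls in every alternative. Between day 2 and day 3 the count on array A was 21 after quantile scaling and 15 with treated arrays only, and the median of the high endothelial venule list was -0.17 after quantile scaling. The cause of these differences was not tested. In the simulation without array-wide effects, changes of about 0.5 were recovered less often on array B (67%) than on array A (76%). With 3 samples a day, a probe set that missed the threshold was not shown to be unchanged.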
